A study of Mus musculus with 18 samples.

Results

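The 10 genes that protect cells from oxidants or bind metals were followed through ischaemic and intact leg muscle of mice labelled as skeletal muscle knockouts of the clock gene Bmal1 and of their controls. The genes were taken from a list of symbols and matched to Ensembl rows of the deposited table. They are the glutathione transferase gene Gsta4, the glutathione peroxidase genes Gpx1 and Gpx3, the catalase gene Cat, the superoxide dismutase genes Sod1 and Sod2, the haem oxygenase gene Hmox1, the quinone reductase gene Nqo1 and the metallothionein genes Mt1 and Mt2. All 10 were found among the 20922 genes of the table, and all 10 passed the filter on low values that left 12262 genes for testing. RNA was sequenced from the tibialis anterior, a fast muscle of the lower hindlimb, at 36 days after ligation of the femoral artery in 1 leg, which mimics the limb ischaemia of peripheral artery disease. The 4 groups were ligated (n = 4) and intact (n = 5) muscle of BKO mice, labelled as doxycycline-induced knockouts of Bmal1, and ligated (n = 4) and intact (n = 5) muscle of control mice, called WT. All mice carried Bmal1 flanked by fx sites and all received doxycycline by gavage about a week before surgery. The labels name an ACTA-rtTA-TRE-Cre transgene as +/+ in controls and -/- in knockouts, the reverse of what a Cre-driven deletion needs, so the genotypes are taken here from the sample names alone. Intact muscle came from the limb opposite the ligated one, and no muscle of unoperated mice is among the samples. The deletion was aimed at skeletal muscle, so other cells of the tissue keep the gene. The labels do not give the age or sex of the mice or the time of day of collection.

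Superoxide leaking from respiration is turned into hydrogen peroxide by superoxide dismutases, and catalase and the glutathione peroxidases then break the peroxide down. Glutathione transferases couple glutathione to toxic products such as oxidised lipids, while haem oxygenase and quinone reductase remove haem and reactive quinones and are classic targets of the transcription factor NRF2. Metallothioneins are small cysteine-rich proteins that bind zinc and copper, and they are induced by metals through the factor MTF1 and by glucocorticoids.

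The libraries held between 14.1 M and 25.6 M reads assigned to genes. The mitochondrial ribosomal RNA mt-Rnr2 took 40.9% to 55.5% of them in BKO ligated, 33.6% to 36.1% in BKO intact, 38.1% to 45.3% in WT ligated and 31.9% to 34.3% in WT intact libraries. All values are the authors' normalized counts, reads divided by a size factor per library and not corrected for gene length. Bmal1 itself (symbol Arntl) had 82.0, 63.8, 69.5 and 64.7 normalized counts in BKO ligated and 46.2, 49.5, 50.2, 61.1 and 42.4 in BKO intact muscle, against 17.0, 12.2, 18.3 and 17.3 in WT ligated and 41.3, 66.3, 47.3, 68.4 and 58.2 in WT intact muscle. Between genotypes it was higher in BKO in ligated muscle (log2 2.05 ± 0.19) and did not pass in intact muscle (-0.16 ± 0.17, 95% interval -0.50 to 0.19). The count sums all exons and the labels do not name the deleted one, so it does not check the labels. Fast fibre markers summed to 820726 to 969984 in BKO ligated, 979379 to 1222780 in BKO intact, 671373 to 815518 in WT ligated and 952878 to 1205090 in WT intact libraries. Adipocyte markers summed to 2254 to 5286, 718 to 822, 4604 to 6981 and 707 to 937 in the same order, and all 7 rose with ligation in each genotype. Among all genes tested, 22.1% were higher with ligation in BKO and 18.7% in WT. In bulk tissue, fewer cells of a type and less RNA per cell cannot be told apart.

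**Figure D1:**
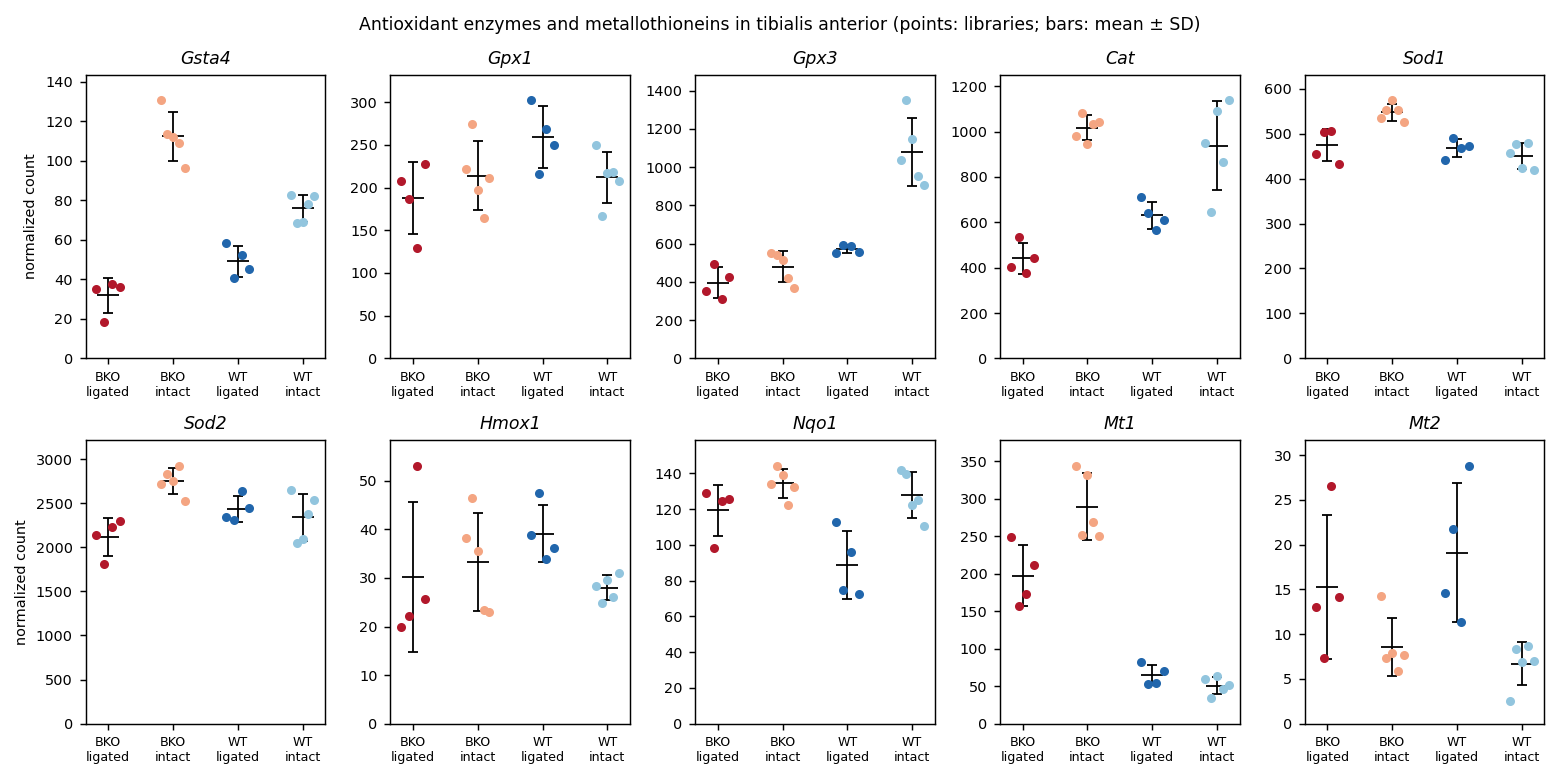
Normalized counts of the 10 genes in each library (points) by group, with the group mean and SD (bars); every axis starts at 0. Mt1 sits between 157 and 344 in BKO libraries and between 34.3 and 81.8 in WT libraries, while Mt2 stays below 30 in all 18 libraries.

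Of the 10 genes, Mt1 had the largest difference between genotypes. Its transcript was 5.67-fold higher in BKO than in WT in intact muscle and 3.002-fold higher in ligated muscle. Its neighbour Mt2 did not pass between genotypes in either limb, and it was 2.61-fold higher in ligated than in intact muscle of WT mice. In intact muscle, Mt1 had 344, 252, 332, 270 and 250 normalized counts in BKO libraries, against 59.4, 34.3, 63.1, 46.2 and 51.2 in WT libraries. In ligated muscle it had 249, 157, 173 and 211 in BKO libraries, against 81.8, 52.9, 54.8 and 70.8 in WT libraries. Every BKO library lay above every WT library, whichever the limb. Mt1 averaged 197 ± 41.1 in BKO ligated and 289 ± 45.1 in BKO intact muscle, against 65.1 ± 13.7 in WT ligated and 50.8 ± 11.4 in WT intact muscle (SD, n = 4 ligated and 5 intact). The log2 fold change of BKO against WT was 2.503 ± 0.17 in the intact limb (SE, limma adjusted p = 2.35e-09), and that in the ligated limb was 1.59 ± 0.19 (adjusted p = 7.25e-06). With ligation Mt1 fell in BKO (-0.56 ± 0.18, adjusted p = 0.0149), while in WT it stood at 0.36 ± 0.18 (95% interval -0.02 to 0.73, adjusted p = 0.122). The difference of these 2 effects was -0.92 ± 0.26 (interaction, adjusted p = 0.0373). In a limma fit with a fixed block for each replicate number within a genotype, it did not pass (-0.67, adjusted p = 0.169). The fall in BKO did not pass there either (-0.44, adjusted p = 0.0844). Without BKO ligated library 4 the fall in BKO was -0.46 and did not pass (adjusted p = 0.0646), without BKO ligated libraries 4 and 5 it was -0.32 (0.275), and the interaction did not pass without BKO ligated library 4 or 5, BKO intact library 1, 3 or 4, WT ligated library 2 or 6 or WT intact library 3 or 5 (-0.94 to -0.79, adjusted p up to 0.0918) or without the filter on low values (0.0536).

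Mt2 was a low gene, with 2 to 35 reads per library. In ligated muscle it had 13.0, 7.36, 26.6 and 14.2 normalized counts in BKO, against 14.6, 21.7, 11.3 and 28.8 in WT. In intact muscle it had 14.2, 7.37, 7.88, 5.86 and 7.63 in BKO, against 2.58, 8.29, 6.90, 8.67 and 7.02 in WT. The genotypes overlapped in each limb, and in WT every ligated library lay above every intact one. Ligation changed Mt2 by 1.38 ± 0.39 on the log2 scale in WT (adjusted p = 0.00765), and its value in BKO was 0.69 ± 0.39 (95% interval -0.12 to 1.502, adjusted p = 0.156). The effects of ligation in BKO and WT were not shown to differ (interaction -0.70 ± 0.55, adjusted p = 0.501). Knockout gave 0.34 ± 0.37 in intact limbs (95% interval -0.42 to 1.11) and -0.35 ± 0.41 in ligated limbs (-1.21 to 0.51). An antisense gene, Gm45774, is annotated across Mt2 on the other strand, and the labels name a stranded kit but not how strand was used in counting.

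The balance of the metallothioneins differed between genotypes. The log2 ratio of Mt1 to Mt2 was 4.96 ± 0.32 in BKO intact (SD, n = 5), against 2.80 ± 0.82 in WT intact muscle (SD, n = 5). A two-sided exact permutation test over libraries gave p = 0.00794, the smallest that 5 against 5 libraries allow. In ligated muscle it was 3.71 ± 0.73 in BKO (SD, n = 4), against 1.78 ± 0.61 in WT (SD, n = 4), with an exact p of 0.0286, also the smallest possible. With ligation the ratio fell by 1.25 in BKO (exact permutation p = 0.0159) and was 1.03 lower in WT (exact permutation p = 0.0794). Adjusted over these 4 comparisons by the Benjamini-Hochberg method, the exact p-values were 0.0317, 0.0381, 0.0317 and 0.0794. The ratio was chosen after the values of both genes were seen, and Mt1 alone already separated the genotypes. Its p-values between genotypes thus largely restate the difference in Mt1 and are not added support. The p-values with ligation are not added support either. In BKO the fall of Mt1 with ligation did not pass without BKO ligated library 4, and Mt2 did not pass. The highest WT intact ratio, 4.08, came from library 2, which had 2 Mt2 reads.

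**Figure D2:**
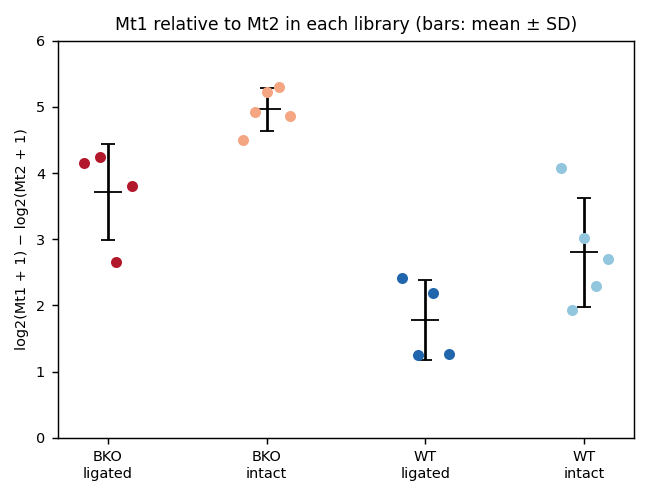
Difference of log2(Mt1 + 1) and log2(Mt2 + 1) in each library (points) with the group mean and SD (bars). The 5 BKO intact libraries lie between 4.50 and 5.30, and the 5 WT intact libraries between 1.93 and 4.08.

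The 2 genes lie side by side on chromosome 8 in the same orientation (mm10, plus strand), Mt2 at 94172664 to 94173568 and Mt1 at 94179082 to 94180327, 5513 bases apart. Their annotated transcripts share no exact run longer than 20 bases. The sequences before their starts are shown because both genes are known for metal-responsive control, while only Mt1 passed between genotypes. They are RefSeq promoter windows of GRCm38.p6, 250 bases before to 50 after the annotated start, 5′ to 3′ on the plus strand, with capitals marking the core of the metal response element, the site known for MTF1. The windows are chr8:94178839-94179138 for Mt1 and chr8:94172368-94172667 for Mt2.
Mt1: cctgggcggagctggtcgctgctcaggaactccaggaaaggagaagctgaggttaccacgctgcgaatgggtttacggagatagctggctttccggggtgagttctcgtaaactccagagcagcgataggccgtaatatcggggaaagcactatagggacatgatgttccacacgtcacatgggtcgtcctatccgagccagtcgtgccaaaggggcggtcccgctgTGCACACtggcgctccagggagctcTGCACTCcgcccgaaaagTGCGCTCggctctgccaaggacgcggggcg
Mt2: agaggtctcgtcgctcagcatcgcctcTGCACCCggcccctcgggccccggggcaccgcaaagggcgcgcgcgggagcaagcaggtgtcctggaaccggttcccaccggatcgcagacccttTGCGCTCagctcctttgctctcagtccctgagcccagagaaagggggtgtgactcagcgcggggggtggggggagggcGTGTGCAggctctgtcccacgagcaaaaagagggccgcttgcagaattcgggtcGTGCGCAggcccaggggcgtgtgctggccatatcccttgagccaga
The core was searched as TGCACNC or TGCGCNC on both strands. The Mt1 window held 3 matches and the Mt2 window 4. Of 32851 mouse windows of this length, 25.7% held at least 1 match, 1.97% at least 3 and 0.518% at least 4. Neither window held the E-box CACGTG, the letters bound by BMAL1 with CLOCK, which 7.15% of all windows held. The antioxidant response element TGACNNNGC, searched on both strands and present in 12.4% of windows, had 1 match in the Mt2 window and none in that of Mt1, and its match overlapped no metal response core. A match is a run of letters, not a site shown to be bound. Each gene was searched in the window above only, which ends 50 bases after the annotated start. Mt1 has 3 annotated transcripts and Mt2 has 2, and sites outside the windows were not counted. The counts thus do not compare the whole control regions of the 2 genes. A window without a match does not show that its gene lacks the element. Which annotated start is used in this muscle was not tested.

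Gpx3, which encodes the secreted glutathione peroxidase of plasma, was lower in libraries labelled BKO than in those labelled WT in each limb, and fell with ligation in WT. In intact muscle it had 551, 539, 514, 423 and 367 normalized counts in BKO, against 1036, 1349, 1146, 954 and 906 in WT. In ligated muscle it had 350, 492, 309 and 427 in BKO, against 552, 594, 589 and 555 in WT. WT intact libraries stood alone, each above all libraries of the other 3 groups. The fall with knockout was 2.25-fold in intact muscle (log2 -1.17 ± 0.13, adjusted p = 2.15e-06) and 1.47-fold in ligated muscle (-0.56 ± 0.15, adjusted p = 0.0191). Ligation lowered it 1.86-fold in WT (-0.90 ± 0.14, adjusted p = 3.21e-05), and in BKO the value was -0.28 ± 0.14 (95% interval -0.57 to 0.01, adjusted p = 0.100). The difference between these ligation effects was 0.61 ± 0.20 and did not pass (adjusted p = 0.0679; 0.0238 by DESeq2). The call in ligated limbs ended without WT ligated library 5 or BKO ligated library 2 or 5 (-0.54 to -0.45, adjusted p up to 0.0803), and without BKO ligated libraries 4 and 5 together (-0.56, 0.0509). The ligation value in BKO passed without BKO intact library 5 or BKO ligated library 4 (adjusted p = 0.0280 and 0.0292), and the interaction without WT intact library 6 or BKO ligated library 5 (0.0486 and 0.0369).

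Cat, the catalase of peroxisomes, fell with ligation in each genotype, more so in BKO. In BKO it had 405, 536, 377 and 444 normalized counts in ligated muscle, against 980, 1082, 944, 1035 and 1043 in intact muscle. In WT it had 710, 640, 564 and 609 in ligated muscle, against 949, 646, 1091, 867 and 1138 in intact muscle. The groups were apart in BKO, while in WT intact library 3 lay within the ligated range. Ligation changed Cat by -1.22 ± 0.13 in BKO, a fall of 2.32-fold (adjusted p = 3.66e-07), and by -0.55 ± 0.13 in WT, 1.46-fold (adjusted p = 0.00224). The difference was -0.67 ± 0.19 (interaction, adjusted p = 0.0371). In a limma fit with a fixed block for each replicate number within a genotype, this interaction was -0.60 and did not pass (adjusted p = 0.0761). With totals without mitochondrially encoded genes, the fall in WT did not pass (-0.27, limma adjusted p = 0.119). The genotypes overlapped in intact muscle and did not pass (0.14 ± 0.12, 95% interval -0.12 to 0.40), and in ligated muscle Cat was 1.44-fold lower in BKO (-0.52 ± 0.14, adjusted p = 0.0193). The last call ended without WT ligated library 2 or BKO ligated library 2 or 5 (-0.49 to -0.45, adjusted p up to 0.0736). The interaction ended without WT intact library 5, BKO intact library 2 or 4, WT ligated library 2 or 6 or BKO ligated library 2 or 5 (-0.68 to -0.60, adjusted p up to 0.0885), and without the filter on low values (0.0506).

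Gpx1, the intracellular glutathione peroxidase, passed in no comparison of the main test. It ranged from 130 to 228 normalized counts in BKO ligated, 164 to 275 in BKO intact, 216 to 302 in WT ligated and 167 to 250.4 in WT intact muscle. All 4 ranges overlapped. Its largest difference was between genotypes in ligated muscle, at -0.48 ± 0.17 (95% interval -0.83 to -0.13, adjusted p = 0.0859). Gpx1 passed there without BKO ligated library 6 (adjusted p = 0.0424) and with totals without mitochondrially encoded genes (-0.56, limma adjusted p = 0.0486).

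Gsta4, whose product conjugates 4-hydroxynonenal, an aldehyde from oxidised lipids, was higher in BKO than in WT in intact muscle and lower in ligated muscle, and fell with ligation in each genotype. In intact muscle it had 131, 114, 112, 109 and 96.7 normalized counts in BKO, against 82.6, 68.7, 69.0, 78.0 and 82.3 in WT. In ligated muscle it had 35.0, 18.4, 37.8 and 36.4 in BKO, against 58.3, 40.7, 52.2 and 45.3 in WT. The 4 groups did not overlap at all, in the order BKO ligated, WT ligated, WT intact and BKO intact from low to high. Knockout changed Gsta4 by 0.55 ± 0.17 in intact muscle (adjusted p = 0.0250) and by -0.65 ± 0.19 in ligated muscle (adjusted p = 0.0341). Ligation lowered it 3.56-fold in BKO (-1.83 ± 0.18, adjusted p = 1.02e-07) and 1.55-fold in WT (-0.63 ± 0.18, adjusted p = 0.00792). The interaction was -1.20 ± 0.25 (adjusted p = 0.00925) and passed when any 1 library was left out (adjusted p up to 0.0275). In a limma fit with a fixed block for each replicate number within a genotype, the interaction did not pass (-1.17, adjusted p = 0.0566). The knockout call in intact limbs ended without WT intact library 3 or 4 or BKO intact library 1 (0.50 to 0.52, adjusted p up to 0.0678). That in ligated limbs ended without WT ligated library 2, 5 or 6 or BKO ligated library 4 (-0.68 to -0.41, adjusted p up to 0.116). It also ended when only the ligated groups were fitted (adjusted p = 0.156), without the filter on low values (0.0552) and without BKO ligated libraries 4 and 5 together (-0.44, 0.180).

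Sod1, the superoxide dismutase of the cytosol, and Sod2, that of the mitochondrial matrix, were both higher in BKO than in WT intact muscle, by small amounts. Sod1 had 525 to 574 normalized counts in BKO intact, against 418 to 479 in WT intact muscle, with no overlap (0.28 ± 0.07, adjusted p = 0.00547). Sod2 had 2529 to 2925 in BKO intact, against 2048 to 2649 in WT intact muscle, with overlap (0.24 ± 0.08, adjusted p = 0.0415). In ligated muscle the 2 genes did not pass between genotypes, Sod1 at 0.02 ± 0.08 (95% interval -0.14 to 0.17) and Sod2 at -0.20 ± 0.09 (-0.39 to -0.02, adjusted p = 0.173), although its BKO and WT ligated libraries did not overlap. With ligation in BKO, Sod1 fell to 433 to 506, against 525 to 574 in intact muscle (-0.21 ± 0.07, adjusted p = 0.0207). Sod2 fell to 1814 to 2294, against 2529 to 2925 (-0.38 ± 0.08, adjusted p = 0.000982). In WT neither passed with ligation, at 0.06 ± 0.07 for Sod1 and 0.06 ± 0.08 for Sod2, and the difference between genotypes passed for Sod2 (-0.44 ± 0.12, adjusted p = 0.0324) and not for Sod1 (-0.27 ± 0.10, adjusted p = 0.123). The intact-limb call of Sod2 ended without BKO intact library 1, 2, 3 or 4, WT intact library 3, 4 or 5 or WT ligated library 6 (0.19 to 0.25, adjusted p up to 0.125). Its interaction ended without BKO ligated library 4, BKO intact library 2 or 4, WT ligated library 2, 5 or 6 or WT intact library 3 or 4 (-0.46 to -0.37, up to 0.0748), and the fall of Sod1 without BKO ligated library 2 or 6 (-0.19 to -0.17, up to 0.0740). The fall of Sod1 also did not pass with upper-quartile scaling (-0.15, adjusted p = 0.0838), with totals without mitochondrially encoded genes (-0.09, 0.338) or with edgeR on recovered reads (-0.17, 0.0520), and the intact-limb call of Sod2 did not pass with edgeR (0.22, 0.0545) or without the filter on low values (0.24, 0.0642). In a limma fit with a fixed block for each replicate number within a genotype, the Sod2 interaction did not pass (-0.44, adjusted p = 0.115). The fall of Sod1 in BKO did not pass there either (-0.16, adjusted p = 0.249). Scaf4 is annotated on the strand opposite Sod1 and overlaps it, so part of the Sod1 count is uncertain.

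Nqo1 and Hmox1, named above as classic NRF2 targets, did not follow each other. Nqo1 had 98.2 to 129 normalized counts in BKO ligated, 122 to 144 in BKO intact, 72.5 to 113 in WT ligated and 110 to 142 in WT intact muscle. It fell 1.45-fold with ligation in WT (-0.54 ± 0.13, adjusted p = 0.00266) and its value in BKO was -0.18 ± 0.13 (95% interval -0.45 to 0.10). In ligated muscle the difference of BKO from WT was 0.44 ± 0.14, just outside the threshold (adjusted p = 0.0530; 0.0458 by DESeq2), and it passed without WT ligated library 2 or BKO ligated library 4 (adjusted p = 0.0151 and 0.0266). Hmox1 was low, with 18 to 52 reads per library, and passed in no comparison. Its normalized counts were 19.99, 22.1, 53.1 and 25.7 in BKO ligated and 38.2, 46.4, 35.4, 23.4 and 22.9 in BKO intact, against 38.9, 47.5, 34.0 and 36.2 in WT ligated and 28.4, 24.9, 29.6, 26.01 and 31.1 in WT intact muscle. WT ligated libraries all lay above WT intact ones, and the difference was 0.46 ± 0.25 (95% interval -0.07 to 0.99, adjusted p = 0.155). Macrophages are known to carry much Hmox1. Their 7 markers summed to 320 to 529 in BKO ligated, 230 to 428 in BKO intact, 567 to 718 in WT ligated and 346 to 487 in WT intact libraries. With ligation 4 of 7 were higher in WT, where 18.7% of all genes were, and 0 of 7 passed in BKO. No macrophage marker was at 0 throughout a group, and the part of macrophages in the Hmox1 values was not tested.

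Set against all genes, the 10 behaved as follows. They were chosen with earlier results of these data known, so the shares and medians describe them and do not test the group. With knockout in intact limbs 5 passed, where 18.3% of all genes did, 4 higher (Mt1, Gsta4, Sod1, Sod2) and 1 lower (Gpx3), where 8.56% and 9.75% of the 12262 genes tested were higher and lower. In ligated limbs 4 passed, where 8.84% of all genes did, 1 higher (Mt1) and 3 lower (Gsta4, Gpx3, Cat), against 4.16% higher and 4.68% lower of all genes. With ligation in BKO 5 passed, all lower (Gsta4, Cat, Sod1, Sod2, Mt1), where 47.2% of all genes passed, 25.1% lower and 22.1% higher. In WT 4 were lower (Gsta4, Gpx3, Cat, Nqo1) and 1 higher (Mt2), against 39.8% of all genes, 21.1% lower and 18.7% higher, so the share called is near that of all genes for ligation in each genotype. The interaction passed for 4, all negative (Gsta4, Cat, Sod2, Mt1), where 6.01% of all genes passed, 2.97% negative and 3.04% positive. The medians over the 10 were -0.25 for ligation in BKO, 0.06 for ligation in WT, -0.41 for knockout in ligated limbs, 0.22 for knockout in intact limbs and -0.57 for the interaction, beside medians over all genes of -0.00357, -0.00251, -0.0206, 0.000174 and -0.0106. The 2 knockout comparisons use different libraries, and so do the 2 ligation comparisons, while the others share groups.

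**Figure D3:**
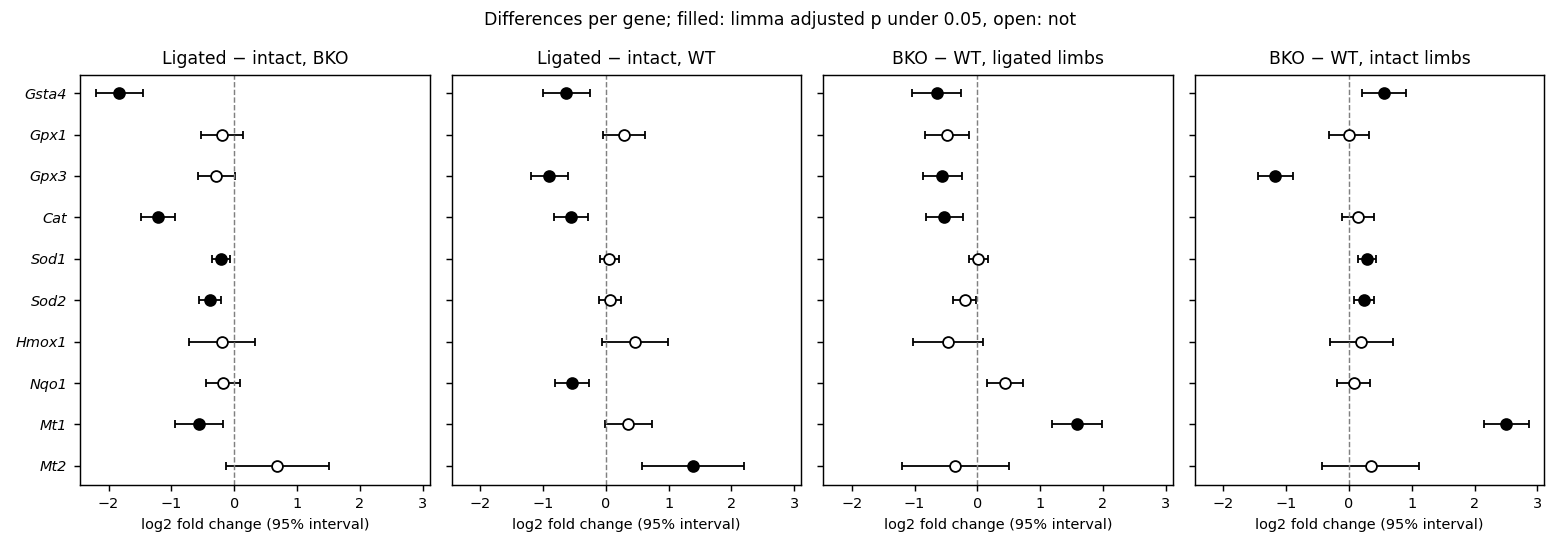
Log2 fold change of each gene with its 95% interval in 4 comparisons; filled points passed at a limma adjusted p under 0.05. Gsta4 lies at 0.55 for knockout in intact limbs and at -0.65 in ligated limbs, and Mt1 lies at 2.503 and 1.59.

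The ligation comparisons depend on how libraries are scaled. When libraries were scaled to equal totals without mitochondrially encoded genes, the median of all genes moved to 0.27 for ligation in WT, 0.12 for ligation in BKO, -0.10 for knockout in ligated limbs, 0.07 for knockout in intact limbs and -0.16 for the interaction. The share of calls that were higher was then 79.5%, 60.1%, 27.1%, 62.1% and 17.965%, beside 47.0%, 46.9%, 47.0%, 46.7% and 50.6% with the authors' factors; upper-quartile scaling gave 57.3% for ligation in WT. Under the scaling without mitochondrially encoded genes, Gsta4, Cat and Nqo1 kept a negative value for ligation in WT but did not pass (-0.36, -0.27 and -0.27), while Gpx1, Sod1, Sod2, Hmox1 and Mt1 passed above 0 there (0.56, 0.33, 0.34, 0.73 and 0.63). For ligation in BKO, Sod1 (-0.09, adjusted p = 0.338) and Mt1 (-0.44, 0.0658) did not pass under it, and upper-quartile scaling also ended the call of Sod1. Directions of called genes above are thus relative to the median gene. Mt1, Gpx3 and Gsta4 kept their calls between genotypes under both of these scalings.

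Genes around the list were counted in lists of related genes, which were also chosen with earlier results of these data known. The counts are read against all genes tested, of which 25.1% were lower and 22.1% higher with ligation in BKO, 21.1% lower and 18.7% higher with ligation in WT, 4.68% lower and 4.16% higher with knockout in ligated limbs, and 9.75% lower and 8.56% higher with knockout in intact limbs. Of 16 tested of 22 other glutathione transferases, 9 were lower and 2 higher with ligation in BKO, and 4 lower and 5 higher in WT, the WT counts being near the shares of all genes. Knockout gave 7 lower and 1 higher in ligated limbs, and 3 higher in intact limbs. Gstm2, a transferase abundant in muscle, had 466 ± 83.1 normalized counts in BKO intact (SD, n = 5), against 271 ± 43.5 in WT intact muscle (SD, n = 5; 0.78 ± 0.17, adjusted p = 0.00335). Gstm7 was at 56.6 ± 10.2 in BKO intact, against 11.2 ± 2.05 in WT intact muscle (2.24 ± 0.29, adjusted p = 1.5e-05). The Gstm genes are close copies of each other, so the split of reads among them is uncertain. Gstk1, the mitochondrial and peroxisomal transferase, had an interaction of -0.80 ± 0.14 (adjusted p = 0.00401) and Gsto1, an omega-class transferase, one of -0.82 ± 0.21 (adjusted p = 0.0224).

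The peroxiredoxins and the thioredoxin system reduce peroxides without catalase. Of 15 genes, 8 were lower and 2 higher with ligation in BKO, where 47.2% of all genes passed. In WT 2 were lower and 4 higher, near the 39.8% of all genes that passed. The list also counts Txnip, which does not itself reduce peroxides and was lower with ligation (-0.96 ± 0.18 in BKO, -0.76 ± 0.18 in WT). Knockout gave 1 lower in ligated limbs and 4 higher in intact limbs. Prdx6, a peroxiredoxin that also acts on phospholipids, averaged 219 ± 36.9 in BKO ligated and 332 ± 22.4 in BKO intact muscle, against 390 ± 31.1 in WT ligated and 301 ± 35.2 in WT intact muscle (SD, n = 4 ligated and 5 intact). It fell with ligation in BKO (-0.61 ± 0.11) and rose in WT (0.37 ± 0.11), with an interaction of -0.99 ± 0.16 (adjusted p = 0.00198). Of the remaining glutathione peroxidases, extracellular SOD and the copper chaperone of SOD, 5 of 6 were tested. Gpx4, which repairs oxidised membrane lipids, fell with ligation (-0.71 ± 0.08 in BKO, -0.40 ± 0.08 in WT), while Gpx8 rose (1.55 ± 0.25 and 1.68 ± 0.25). Sod3, the extracellular dismutase, rose with ligation (0.90 ± 0.20 and 0.80 ± 0.20) and was lower in BKO intact muscle (-0.78 ± 0.19).

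**Figure D4:**
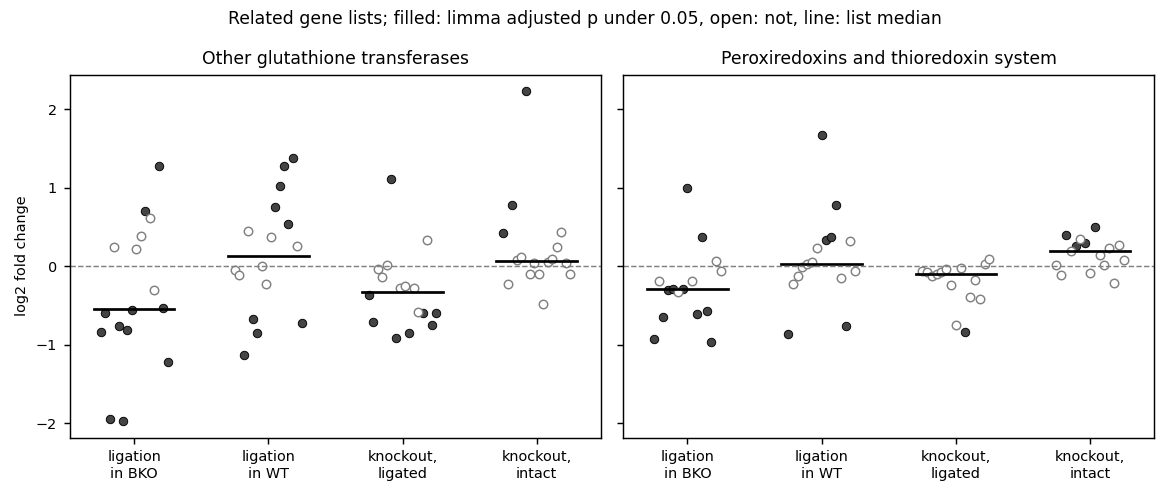
Log2 fold change of every tested gene of 2 related lists in 4 comparisons, with the list median as a line; filled points passed at a limma adjusted p under 0.05. The median of the glutathione transferases is -0.54 for ligation in BKO and 0.13 for ligation in WT, and that of the peroxiredoxin list -0.29 and 0.03.

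Of 9 NRF2 and metal-response regulators, 3 were lower with ligation in each genotype. With ligation 25.1% of all genes were lower in BKO and 21.1% in WT, and 22.1% and 18.7% were higher. With knockout 18.3% of all genes passed in intact limbs and 8.84% in ligated limbs. Sqstm1, the autophagy adaptor that binds KEAP1, fell by -0.92 ± 0.06 in BKO and -0.90 ± 0.06 in WT. Nfe2l2, the gene of NRF2, was lower in BKO than in WT, at -0.28 ± 0.08 in the intact limb (adjusted p = 0.0165) and at -0.30 ± 0.09 in the ligated limb (adjusted p = 0.0349). Mtf1, the gene of the factor that senses zinc, chosen for its role after its values were seen, did not pass between genotypes (-0.26 ± 0.18 in intact and 0.35 ± 0.21 in ligated limbs). Of 13 tested of 14 NRF2 target and glutathione synthesis genes, 1 rose and 1 fell with knockout in intact limbs and 1 rose and 2 fell in ligated limbs. Osgin1, an oxidative-stress growth inhibitor gene, was lower in BKO in each limb (-0.97 ± 0.26 and -1.19 ± 0.29). With ligation 5 rose and 3 fell in BKO and 4 rose and 2 fell in WT, and Tkt, the transketolase of the pentose phosphate pathway, rose most clearly (1.26 ± 0.18 and 1.84 ± 0.18).

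Of 18 tested of 20 zinc and copper handling genes, 1 rose with knockout in intact limbs and 1 fell in ligated limbs, beside 3 higher and 2 lower with ligation in BKO and 3 higher in WT, fewer than the 47.2% and 39.8% of all genes that passed. Slc30a9, a zinc transporter, was the riser (0.30 ± 0.09, adjusted p = 0.0213), and Slc30a1, the zinc exporter of the cell surface and itself a known target of MTF1, was lower in BKO ligated muscle (-0.41 ± 0.12, adjusted p = 0.0292) and at -0.13 ± 0.10 in intact muscle. Of 10 glucocorticoid-responsive genes, 4 were lower with knockout in intact limbs, and 2 lower and 1 higher in ligated limbs. The shares of all genes were 9.75% lower in intact limbs, and 4.68% lower and 4.16% higher in ligated limbs. Tsc22d3, the glucocorticoid-induced leucine zipper gene, was lower in BKO in each limb (-1.02 ± 0.10 and -1.05 ± 0.11). With ligation 2 of the 10 rose and 3 fell in BKO, and 1 rose and 3 fell in WT.

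Of 14 selenoprotein and selenium genes, 2 rose and 5 fell with ligation in BKO, and 2 rose and 2 fell in WT. Knockout gave 2 lower in intact limbs and 1 lower in ligated limbs. For the lists of this paragraph, the share of all genes that passed with ligation was 47.2% in BKO and 39.8% in WT. With knockout it was 18.3% in intact and 8.84% in ligated limbs. The selenium count for ligation in BKO is near that share. Selenop, the plasma selenium carrier, averaged 935 ± 50.4 in BKO ligated muscle (SD, n = 4), against 1465 ± 137 in WT ligated muscle (SD, n = 4), and 1415 ± 122 in BKO intact muscle (SD, n = 5). Selenow, the selenoprotein abundant in muscle, fell with ligation by -0.95 ± 0.07 in BKO and -0.87 ± 0.07 in WT. Of 8 tested of 10 oxidant-producing enzyme genes, 1 rose and 1 fell with ligation in BKO and 4 rose and 1 fell in WT, and knockout lowered 1 in each limb. That 1 was Maob, the monoamine oxidase of the outer mitochondrial membrane, at -0.68 ± 0.14 in intact and -1.79 ± 0.16 in ligated muscle. Nox4, an NADPH oxidase, rose with ligation (1.62 ± 0.23 in BKO and 1.04 ± 0.23 in WT). Of 11 tested of 12 haem and iron genes, 4 rose with ligation in each genotype and 3 fell in BKO and 4 in WT, and knockout gave 1 higher and 1 lower in intact limbs and 1 higher and 2 lower in ligated limbs. Hmox2, the constitutive haem oxygenase, was higher in BKO intact muscle (0.33 ± 0.09) and fell with ligation (-0.80 ± 0.09 in BKO and -0.33 ± 0.09 in WT).

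Per kilobase of annotated exons, WT intact muscle held Gpx3 at 595 ± 97.4 normalized counts per kb (SD, n = 5), then Cat at 359 ± 75.1, Sod2 at 234 ± 26.6, Gpx1 at 147 ± 20.8, Sod1 at 113 ± 7.22, Nqo1 at 82.4 ± 8.42, Gsta4 at 60.1 ± 5.44, Mt1 at 40.8 ± 9.11, Hmox1 at 15.98 ± 1.46 and Mt2 at 11.4 ± 4.12. In BKO intact muscle Mt1 stood at 232 ± 36.2 per kb (SD, n = 5), within the spread of Gpx3 at 264 ± 44.3 and below Sod2 at 275 ± 14.8. In mm10, Gsta4 lies on chromosome 9 at 78182774 to 78209349, Gpx1 on 9 at 108338903 to 108340343, Gpx3 on 11 at 54902453 to 54910377 and Cat on 2 at 103453849 to 103485160. Sod1 lies on 16 at 90220754 to 90226329, Sod2 on 17 at 13006846 to 13040063, Hmox1 on 8 at 75093621 to 75100589 and Nqo1 on 8 at 107388225 to 107403206. The levels per kb use the union of all annotated exons, 10.01 kb for Sod2, and would be higher for a gene that uses only its shorter transcripts.

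The genes with the most similar profiles were sought among 8251 other genes, by the root-mean-square difference of centred log2 values over the 18 libraries. For Mt1, whose own root-mean-square deviation was 1.104, they were Dupd1, a phosphatase gene, at 0.30 and Casq2, the calcium buffer calsequestrin, at 0.45. For Gsta4 (0.72) they were Cox6a2, the muscle form of a cytochrome oxidase subunit, at 0.22 and the ribosomal protein gene Rps26 at 0.25. Those of Gpx3 (0.59) were Clip1, a microtubule-binding protein gene, at 0.23 and Rora, a nuclear receptor gene of the clock, at 0.25. Cat (0.51) was closest to the mitochondrial chaperonin gene Hspe1 at 0.16 and the lipid droplet gene Plin2 at 0.16. Sod2 (0.18) was closest to the complex I genes Ndufv2 at 0.07 and Ndufs7 at 0.09. Sod1 was closest to Lars and Pcmt1 (0.08 and 0.09), Nqo1 to Mettl14 and Arl3 (0.13 and 0.15), Gpx1 to B4gat1 and Akr1a1 (0.18 and 0.19), Hmox1 to Ccng2 and Hax1 (0.28 and 0.30) and Mt2 to Dusp6 and Capg (0.43 and 0.44). These are descriptions over libraries of 4 groups.

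Markers of other cells were counted alongside. Among all genes tested, 22.1% were higher and 25.1% lower with ligation in BKO, and 18.7% higher and 21.1% lower in WT. With knockout, 4.68% were lower in ligated and 9.75% in intact limbs. Endothelial markers rose with ligation, 6 of 6 in BKO and 5 of 6 in WT, summing to 3140 to 4174 in BKO ligated, 1779 to 2369 in BKO intact, 2868 to 3688 in WT ligated and 1636 to 2128 in WT intact libraries. Fibro-adipogenic progenitor markers summed to 2518 to 3778, 1982 to 3401, 4038 to 4773 and 3339 to 3974 in the same order, with 2 of 6 lower in BKO than in WT ligated muscle and 1 of 6 in intact muscle. Red blood cell markers, whose cells hold much catalase and Gpx1, summed to 1722 to 2029, 1983 to 3622, 1970 to 2424 and 1626 to 2717, with 2 of 5 tested lower with ligation in BKO. Slow fibre markers passed nowhere and summed to 77.6 to 601, 53.4 to 402, 43.4 to 212 and 31.5 to 431. Of 5 neutrophil markers 3 were in the table, and they summed to at most 4.997 in any library, with Retnlg at 0 in both intact groups and S100a8 at 0 in WT ligated muscle. No marker of the other lists was at 0 throughout a group, and the part of these cells in the results above was not tested.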

How the data were processed

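The labels' protocols give total RNA and a stranded total RNA library kit. Per the submitters' processing notes, Trimmomatic 0.33, STAR 2.5.2, RSEM 1.3.3, DESeq2 and the build mm10 were used; no source read here names the annotation or the strand setting. The authors deposited a signal per gene, normalized counts, which equal whole reads divided by 1 size factor per library (100% of values within 0.001). Gene positions and exon lengths come from GENCODE M21, and promoters from RefSeq GRCm38.p6, which held 8 of the 10 genes. The main test was limma 3.58.1 in R 4.3.3 on log2(normalized count + 1) with a trended empirical Bayes fit over all 18 libraries, for 12262 genes with a mean of at least 10. Benjamini-Hochberg adjusted p under 0.05 counted as passed, and fold changes on this scale understate those of low genes. edgeR 4.0.16 and DESeq2 1.42.0 on the recovered reads, other scalings, pseudocounts and filters, and leaving out each library were alternatives. The fit was tested on simulated data. Labels do not say that the libraries are separate animals, so the p-values reflect only spread among these libraries, which may be technical. Named genes were all 10 members, Arntl, up to 3 genes of each list with the smallest p in a comparison, and the 2 nearest profiles of each member. Members and lists were chosen with earlier results of these data known.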

Additional observations from a re-analysis of the deposited data

Results flagged for a closer look

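In 3 of 40 gene and group pairs a single library stood far from the rest of its group by Dixon's gap test, which chance flags in about 1 of 20 groups. Gsta4 was lowest in BKO ligated library 4 at 18.4 normalized counts, and Nqo1 was lowest in the same library at 98.2. Mt2 was highest in BKO intact library 1 at 14.2. The limma interaction, ligation in BKO minus that in WT, passed in the main test for Gsta4 (-1.20), Cat (-0.67), Sod2 (-0.44) and Mt1 (-0.92). With a fixed replicate block none of these passed by limma (adjusted p = 0.0566, 0.0761, 0.115 and 0.169). Those of Cat, Sod2 and Mt1 also did not pass when certain single libraries were left out.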

How the results depend on the processing

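Of 1509 values for single genes under the alternatives, 1407 kept their direction and side of the threshold, 73 lost the call, 18 gained it and 11 changed sign. With totals without mitochondrially encoded genes, 3 members passed for ligation in BKO and 1297 genes for the interaction. With a fixed replicate block 3 members passed for ligation in BKO, and for the interaction 0 members and 382 genes passed by limma, with Gsta4 at -1.17 (adjusted p = 0.0566), Cat at -0.60 (0.0761), Sod2 at -0.44 (0.115) and Mt1 at -0.67 (0.169). In that fit Sod1 (-0.16, 0.249) and Mt1 (-0.44, 0.0844) did not pass for ligation in BKO. Libraries with the same replicate number showed little shared deviation (correlation of deviations -0.0638 to 0.0241 in BKO and -0.0465 to 0.0478 in WT). With 3 such pairs in BKO and 4 in WT, this cannot show whether they came from the same mouse. Without the filter 2 members passed for the interaction, and DESeq2 gave 1194 genes there. Without BKO ligated libraries 4 and 5, an alternative chosen after seeing the data, 2 members and 616 genes passed for knockout in ligated limbs and 1 member and 269 genes for the interaction. Leaving out each library gave 4 to 6 members for ligation in BKO, 5 for ligation in WT, 2 to 5 for knockout in ligated limbs, 3 to 5 in intact limbs and 1 to 5 for the interaction. The matching gene counts were 5027 to 5864, 4303 to 4928, 733 to 1257, 1778 to 2313 and 402 to 1015. Values near 0 changed sign: Gpx1 for ligation in BKO (0.0467 without both libraries), Sod1 for knockout in ligated limbs (-0.0647 with totals without mitochondrially encoded genes, -0.076 without both libraries, -0.0157 to 0.0589 leaving out each library) and Gpx1 for knockout in intact limbs (-0.00069 with array weights, -0.0931 to 0.0922 leaving out each library). The causes were not tested. Mt2, with 2 to 35 reads per library, is the gene that depth limits most.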
